A study of Pongo abelii with 8 samples.

Results

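The 6 induced pluripotent stem cell (iPSC) colonies of the series, 6 of its 8 arrays, were compared with each other gene by gene. They came from 2 Sumatran orangutans, 3 colonies from KB10460, a female of 43 years, and 3 from KB10973, a male of 29 years. All colonies descended from skin fibroblasts that carried retroviral vectors with human OCT4, SOX2, KLF4 and c-MYC. The colonies were picked by hand and expanded on inactivated mouse embryonic fibroblasts or in medium conditioned by them, with basic fibroblast growth factor. The 2 other arrays, 1 of the untransduced skin fibroblasts of each animal grown in serum, served only as reference levels. The colonies are called KB10460 colony 1, 2 and 3 and KB10973 colony 1, 2 and 3, and they were pooled without regard to the animal. RNA of each culture was read on 1 Affymetrix array designed for human genes, and every value below is a log2 expression value. A step of 1 on this scale is a doubling of signal.

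Human and ape iPSCs keep a shared core of pluripotency genes active, among them the transcription factors OCT4 and SOX2. Colonies grown side by side can differ all the same in genes of NODAL, BMP and WNT signalling, which direct the first steps toward mesoderm and endoderm, and in genes that respond within minutes to growth factors or handling. Each colony here is 1 culture on 1 array and no colony was measured a second time. The spread between colonies therefore holds the difference between clones, between dishes and between array measurements, which cannot be told apart, and colonies of 1 animal share their donor. Since fewer cells of a type and less RNA per cell cannot be told apart in such bulk samples, a low value does not say which of them applies.

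The labelled cell type was checked on marker genes, each at the probe set that was brightest on average in the colonies. Of 39 pluripotency genes on the array, 32 were higher in all 6 colonies than in both fibroblast cultures and 1 was lower. The median of these genes lay between 6.60 and 7.12 in the colonies and between 4.12 and 4.14 in the fibroblasts. Of 39 fibroblast and feeder-type mesenchymal genes, 37 were lower in all 6 colonies than in both fibroblast cultures and 1 was higher. Their median was 5.40, 5.52 and 4.96 in KB10460 colonies 1, 2 and 3 and 5.01, 5.30 and 5.53 in KB10973 colonies 1, 2 and 3, against 9.47 and 9.88 in the KB10460 and KB10973 fibroblasts. The gene that was higher was THY1, a surface protein that human pluripotent cells also carry. In each list the medians of the colonies differed by less from each other than from those of the fibroblasts.

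Most genes differed little between colonies. A mean over 6 in the 6 iPSC arrays was reached by 4378 of 22277 probe sets (19.7%). After genes with a single symbol had been taken at their brightest probe set and placed on an orangutan autosome, 2769 genes remained. The median standard deviation (SD) of these genes over the colonies was 0.18, with 0.074 at the 5th and 0.455 at the 95th percentile, and the median range from the lowest to the highest colony was 0.479. The range was over 1 in 245 genes (8.85%) and over 2 in 33. An SD over 0.5 was taken to mark a variable gene and an SD under 0.1 a steady gene, which gave 104 variable genes (3.76%) and 374 steady genes (13.5%). Between any pair of colonies the correlation across all probe sets was 0.986 to 0.994, and the array medians lay between 3.74 and 3.79.

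The SD depended on the level. The median SD was 0.194 among the 1059 genes with a mean of 6 to 7 and 0.071 among the 41 genes with a mean of 12 to 14. Steady genes made up 7.46% of the first class and 82.9% of the last. No gene with a mean over 11 was variable. In the plot of SD against level, the variable genes lie between means of 6 and 11, and most of them below 9. At the limits of the classes, the probe set of PBRM1 was kept with a mean of 6.0007 and a probe set of TCF7L2 was left out with a mean of 5.9995, while TCF7L2 itself was kept at another probe set. KRT8 was variable with an SD of 0.501 and KCNK12 was not with 0.499. BLTP1 was steady with 0.09996 and SEC31A was not with 0.100036. Some genes reached the level limit only through their highest colonies, among them CER1, FOS, DKK1, TBXT, GSR, GNA14 and PDGFRA.

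**Figure D1:**
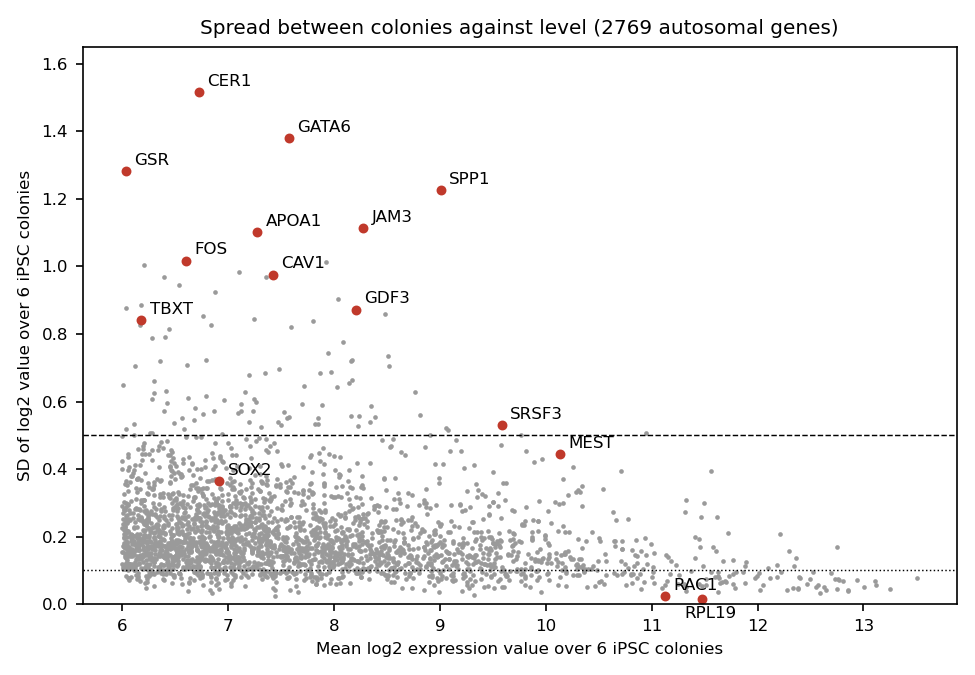
SD of the log2 value over the 6 iPSC colonies against the mean log2 value, with 1 point for each of 2769 autosomal genes and named genes in red. The dashed line marks an SD of 0.5, above which 104 genes lie, and the dotted line an SD of 0.1, below which 374 genes lie.

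A second probe set of the same gene was available for 22 of the 104 variable genes and followed the first closely. The correlation of the paired probe sets over the 6 colonies was over 0.8 in 21 of these 22 genes, with a median of 0.98, and the second probe set had an SD over 0.5 in 16. The exception was SRSF3, at 0.72. Of 104 steady genes with a second probe set, 25 reached a correlation of 0.8 (24%). Over all 568 genes with a second probe set, 225 reached it (39.6%). Such a correlation rises with the spread of a gene, and the classes were chosen by spread. The difference between variable and steady genes therefore follows at least in part from that choice. For variable genes, separate sets of probes gave much the same differences between colonies.

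The 2 placed autosomal genes with the highest SD belong to early mesendoderm. CER1, a secreted inhibitor of NODAL and BMP ligands made in the early endoderm, had an SD of 1.52. It was at 4.89, 8.23 and 8.63 in KB10460 colonies 1, 2 and 3 and at 6.06, 5.44 and 7.11 in KB10973 colonies 1, 2 and 3, a 13.4-fold range. The fibroblasts, at 4.15 and 3.45, lay below every colony. GATA6, a transcription factor of primitive and definitive endoderm, came second with an SD of 1.38. It was at 5.88, 8.86 and 9.03 in KB10460 colonies 1, 2 and 3 and at 7.33, 6.05 and 8.28 in KB10973 colonies 1, 2 and 3. In both genes KB10460 colonies 2 and 3 were the highest, KB10460 colony 1 was the lowest and KB10973 colony 2 came next to it, so the spread lay within each animal (SD within animals 1.57 for CER1).

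The order was similar, but not the same, in other genes of this group. APOA1, a lipoprotein gene of endoderm and liver, ranged from 5.67 in KB10460 colony 1 to 8.95 in KB10460 colony 3. BMP2, a bone morphogenetic protein ligand, ranged from 5.54 in KB10460 colony 1 to 8.20 in KB10460 colony 2, and here both fibroblast cultures were above the colonies at 11.90 and 9.26. CXCR4, the chemokine receptor used to mark definitive endoderm, ranged from 5.05 in KB10460 colony 1 to 7.78 in KB10460 colony 2. In CXCR4 too both fibroblast cultures were above the colonies, at 8.91 and 8.20. FLRT3, a membrane protein that binds FGF receptors, was at 4.57 in KB10460 colony 1 and between 6.17 and 7.25 in the other 5. Without that colony its SD was 0.415 in place of 0.97.

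TBXT, the T-box factor Brachyury of the primitive streak, was at 4.74 in KB10460 colony 1, near the fibroblast levels of 4.62 and 4.49, and between 6.02 and 7.34 in the other colonies. Its highest value was in KB10973 colony 3 and not in the pair that led CER1, and its SD without KB10460 colony 1 was 0.511 in place of 0.84. DKK1, a secreted WNT inhibitor, also peaked in KB10973 colony 3, at 7.50, next to KB10460 colony 3 at 7.20, and was lowest in KB10460 colony 1, at 5.09. Some other factors of these tissues were low. FOXA2, a factor of definitive endoderm, did not reach the level limit but had its highest values, 5.58 and 4.95, in KB10460 colonies 3 and 2, while SOX17, another endoderm factor, was between 3.49 and 4.62 in all colonies. Other genes of the endoderm and liver list under the limit had another order. AFP, TTR and APOA2 were lowest in KB10460 colony 2, at 5.43, 3.60 and 3.30. AFP was highest in KB10460 colony 3 (6.37), APOA2 in KB10973 colony 1 (5.45) and TTR in KB10973 colony 3 (4.95). FOXA2, SOX17, AFP, TTR and APOA2 were picked after their values had been seen.

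The NODAL, LEFTY and SMAD list kept 6 of its 19 genes on the array, and 4 of the 6 were variable (66.7%, against 3.76% of all kept genes). Their median SD was 0.581, against 0.18 over all kept genes. Besides CER1 these were GDF3, a TGF-beta family ligand of pluripotent cells, ACVR1B, the type I receptor for NODAL and activin, and the activin inhibitor FST. GDF3 was at 7.23, 9.64 and 8.72 in KB10460 colonies 1, 2 and 3 and at 7.54, 7.89 and 8.23 in KB10973 colonies 1, 2 and 3. ACVR1B was highest in KB10460 colony 2 too, at 7.63 against 5.91 to 6.96 elsewhere, and its SD of 0.61 was 0.401 without that colony. The intracellular members SMAD2 and TGIF1 had SDs of 0.22 and 0.17 and were not variable. The endoderm and liver list had a median SD of 0.644 and 3 variable genes of 6 kept (50%), which were GATA6, APOA1 and CXCR4, and its 3 others, APOC1, CLDN6 and APOE, had SDs of 0.34, 0.14 and 0.10. Set against the median of the other 5 colonies, KB10460 colony 1 was the lowest in both lists, with a median over the genes of -0.698 and -1.003.

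**Figure D2:**
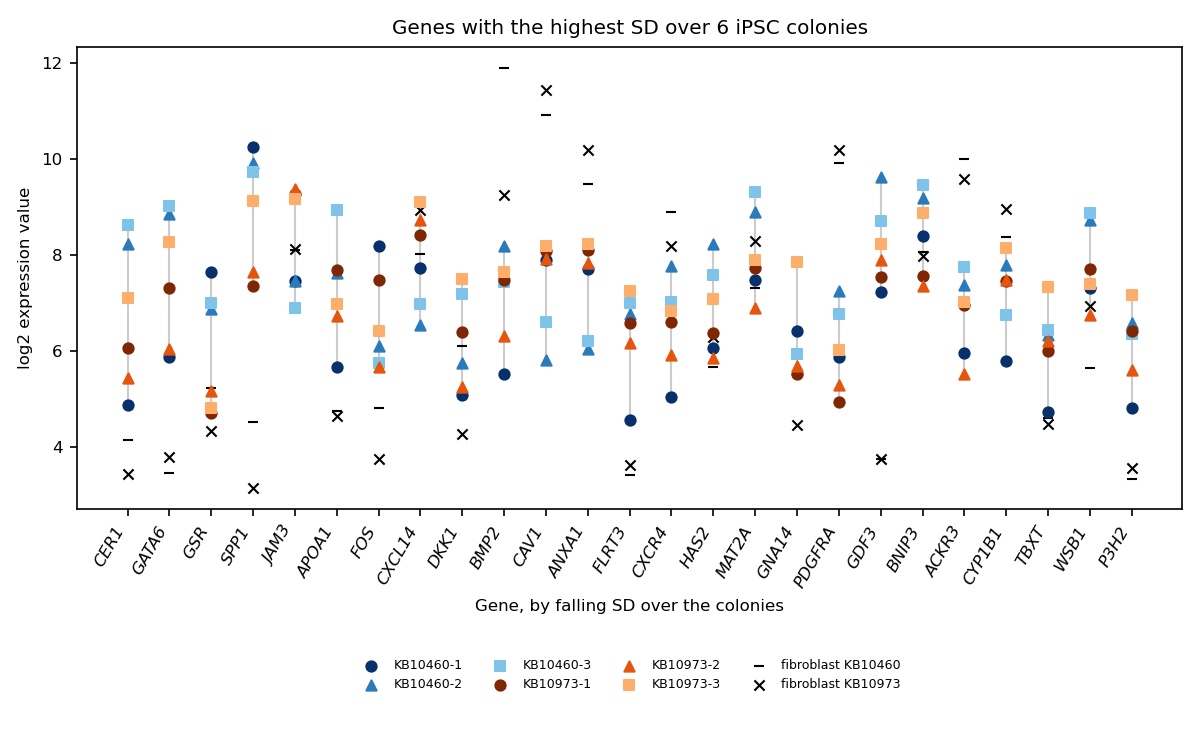
Log2 expression values (vertical axis) of the 25 autosomal genes with the highest SD, ordered from left to right by falling SD, with 1 coloured symbol per iPSC colony and black marks for the fibroblast cultures. The grey line joins the lowest and the highest colony, from 4.89 to 8.63 in CER1, and in CER1 and GATA6 both ends of the line are KB10460 colonies (blue).

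Genes that respond early to growth factors gave 8 variable genes, the highest number of any list, though the share was higher in the NODAL and endoderm lists. Of 18 immediate early genes kept, FOS, DUSP6, IER3, DUSP1, CCN1, EGR1, MYC and CCN2 were variable (44.4%, against 3.76% of all kept genes), with a list median of 0.430. FOS, a subunit of the AP-1 transcription factor, was at 8.18, 6.10 and 5.75 in KB10460 colonies 1, 2 and 3 and at 7.49, 5.67 and 6.42 in KB10973 colonies 1, 2 and 3. DUSP1, the phosphatase that switches off MAP kinases, was highest in the same 2 colonies, at 7.75 in KB10460 colony 1 and 7.11 in KB10973 colony 1, and lowest in KB10460 colony 3 at 5.83. EGR1, a zinc finger factor, ranged from 7.57 in KB10460 colony 3 to 9.10 in KB10460 colony 1. Colony 3 of KB10460 was the lowest in 10 of the 18 genes, and over all kept genes it was the lowest in 24.9%. Colony 1 of KB10460 was the highest in 7, and over all kept genes in 28.4%.

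Not every gene of the list shared this order. DUSP6, the ERK phosphatase that follows FGF signalling, was highest in KB10460 colony 2 at 9.24, against 7.22 to 8.25 in the others, and its SD without that colony was 0.425 in place of 0.74. IER3 was at 8.11 in KB10973 colony 3 and between 6.13 and 6.97 in the other 5, with an SD of 0.364 without that colony. FGF4, the ligand that pluripotent cells make themselves, was at 7.06 and 7.31 in KB10460 colonies 1 and 2 and between 5.79 and 6.27 in the other 4.

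CAV1, ANXA1 and CXCL14, all among the 25 genes with the highest SD, were lowest in KB10460 colonies 2 and 3, where CER1 was highest. CAV1, the coat protein of caveolae, was at 7.91, 5.81 and 6.62 in KB10460 colonies 1, 2 and 3 and at 8.08, 7.92 and 8.20 in KB10973 colonies 1, 2 and 3, and its SD of 0.98 was 0.643 without KB10460 colony 2. ANXA1, a calcium-dependent membrane-binding protein, was at 7.71, 6.05 and 6.22 in the KB10460 colonies and between 7.83 and 8.24 in the KB10973 colonies. CXCL14, a chemokine, was lowest in the same pair, at 6.55 and 6.99, and highest in KB10973 colony 3 at 9.10. The order of the other 4 colonies was not the reverse of that in CER1, since KB10973 colony 3 was the highest in all 3 genes and, at 7.11, above 3 other colonies in CER1. The fibroblasts were above every colony in CAV1 (10.92 and 11.43) and ANXA1 (9.48 and 10.19), and within the range of the colonies in CXCL14.

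PDGFRA, a receptor of mesenchymal cells and of extraembryonic endoderm, ran the other way. It was at 7.26 and 6.79 in KB10460 colonies 2 and 3 and between 4.94 and 6.03 in the other 4, below both fibroblast cultures. With a mean of 6.03, PDGFRA reached the level limit only through KB10460 colonies 2 and 3. Of the 12 kept genes in the fibroblast and feeder-type list, 4 were variable (33.3%), with a list median of 0.348. These were CAV1, PDGFRA, COL1A2 and FN1, and they did not share 1 order of colonies. Colony 3 of KB10973 was the highest in 8 of the 12, and over all kept genes in 15%. COL1A2, a fibrillar collagen gene, was at 6.65 in KB10460 colony 1 and at 7.33 to 8.26 elsewhere, against 12.83 and 12.95 in the fibroblasts, and its SD without that colony was 0.356. Over all 39 listed genes on the array the medians of the colonies differed by less, from 4.96 to 5.53. The part of feeder or unreprogrammed cells in these values was not tested.

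MAT2A and WSB1 were higher in KB10460 colonies 2 and 3 than in the other 4. MAT2A, which makes S-adenosylmethionine, was at 7.48, 8.90 and 9.32 in KB10460 colonies 1, 2 and 3 and at 7.73, 6.91 and 7.90 in KB10973 colonies 1, 2 and 3. WSB1, a subunit of a ubiquitin ligase, was at 8.74 and 8.87 in the pair and at 6.75 to 7.71 in the other 4. Splicing factors as a list did not follow this split. Their median deviation from the other 5 colonies was -0.017 in KB10460 colony 2 and 0.0071 in KB10460 colony 3. Of 40 kept, SRSF10, SRSF5 and SRSF3 were variable (3 genes, 7.5%, against 3.76% of all kept genes). A further 10 members were steady (25%, against 13.5%). The list median, 0.181, was close to that of all genes. SRSF10 was highest in KB10460 colony 3 at 9.17 and at 7.40 to 7.88 in the KB10973 colonies. SRSF5 was at 7.34 in KB10973 colony 2 and at 8.30 to 8.93 in the other 5, and its SD without that colony was 0.248. Single RNA-binding genes outside the list that were higher in the pair, picked after their values had been seen, were LUC7L3, a splicing protein, at 8.79 and 8.69 in the pair and at 7.32 to 7.50 elsewhere, and the splicing regulator RBM5, at 6.89 and 7.16 in the pair and at 5.67 to 6.37 elsewhere.

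The 3 variable genes among hypoxia-response genes did not share 1 order of colonies. BNIP3, a mitochondrial protein induced at low oxygen, was at 8.40, 9.20 and 9.45 in KB10460 colonies 1, 2 and 3 and at 7.57, 7.37 and 8.88 in KB10973 colonies 1, 2 and 3. ADM, the peptide adrenomedullin, was at 8.29 to 8.79 in the KB10460 colonies and KB10973 colony 3, and at 7.32 and 6.95 in KB10973 colonies 1 and 2. VEGFA, the vascular growth factor, was highest in KB10460 colony 2 at 8.73 and lowest in KB10460 colony 1 at 7.16. They were the variable genes of 22 in the glycolysis and hypoxia list (13.6%), whose median SD was 0.222. KB10460 colony 3 was the highest in 13 of the 22, and over all kept genes in 13.3%. Of the enzymes, GAPDH, ENO1 and LDHA, picked as examples, had SDs of 0.08, 0.14 and 0.26, the last of them above the list median.

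For 10 of the 104 variable genes (9.62%) the widest gap between neighbouring colonies fell between the animals. The same share over all kept genes was not counted, so this share cannot be called particular to variable genes. GSR, which regenerates reduced glutathione, was at 6.87 to 7.65 in the KB10460 colonies and at 4.71 to 5.17 in the KB10973 colonies. Its SD was 1.28 over all colonies and 0.34 within animals. JAM3, an adhesion molecule of cell junctions, was at 6.91 to 7.47 in the KB10460 colonies and at 9.17 to 9.38 in the KB10973 colonies, with both fibroblast cultures between them at 8.12 and 8.13. SRD5A1, a steroid reductase, was at 5.89 to 6.42 against 7.53 to 7.65. That the animals do not overlap in these 3 genes follows from where the widest gap fell. GSR, with a mean of 6.04, reached the level limit only through the KB10460 colonies. SPP1, the secreted phosphoprotein osteopontin, had an SD of 1.23 and was not split in this way, since KB10973 colony 3, at 9.13, lay nearer to the KB10460 colonies (9.74 to 10.26) than to KB10973 colonies 1 and 2 (7.35 and 7.65).

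By median SD the kept pluripotency genes stood between the NODAL and endoderm lists and the housekeeping genes. Of 23 kept, 2 were variable, GDF3 and FGF4 (8.7%, against 3.76% of all kept genes). In the list 1 gene was steady (4.35%, against 13.5%), and the median SD was 0.225. Some members outside this count varied more, picked after their values had been seen. Under the level limit GAL had an SD of 1.14, PTPRZ1 0.65 and DPPA4 0.54, and CYP26A1, which could not be placed, had 0.72. POU5F1, which encodes OCT4, and the NODAL co-receptor TDGF1 were read from probe sets that carry several gene symbols and stayed outside the list. POU5F1 ranged from 10.56 to 10.67 with an SD of 0.047 and TDGF1 from 10.19 to 10.30 with an SD of 0.043. LIN28A, an RNA-binding protein that blocks let-7 maturation, had an SD of 0.11, and the methyltransferase DNMT3B 0.15. SOX2 was less even, at 7.38, 7.31 and 6.79 in KB10460 colonies 1, 2 and 3 and at 6.42, 6.80 and 6.80 in KB10973 colonies 1, 2 and 3 (SD 0.36). L1TD1, an RNA-binding protein of pluripotent cells, lay at 10.55 to 10.66 in the KB10460 colonies and at 9.73 to 10.02 in the KB10973 colonies.

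Of the other transduced factors, MYC was variable and KLF4 was low. MYC was at 7.24, 7.02 and 7.02 in KB10460 colonies 1, 2 and 3 and at 7.86, 8.37 and 7.52 in KB10973 colonies 1, 2 and 3 (SD 0.53 over all and 0.32 within animals), and the fibroblasts, at 7.10 and 7.08, lay within that range. The brighter probe set of KLF4 had a mean of 5.64 in the colonies, below 6.04 and 6.72 in the fibroblasts. NANOG, at a mean of 5.68, also fell under the level limit and had an SD of 0.14, with its highest value, 5.95, in KB10460 colony 2. Whether these probe sets also read transcript of the vectors was not tested.

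Cytosolic ribosomal protein genes had the lowest median SD of the lists. RPL19, a protein of the large ribosomal subunit, had the lowest SD of the placed genes, 0.014, with values from 11.46 to 11.50, and without KB10460 colony 1 the SD was 0.0038. SMIM7, the GTPase RAC1 and the translation termination factor ETF1 followed with SDs of 0.023, 0.024 and 0.027. Among the 12 genes with the lowest SD were also RPS19 and RPL14, the amyloid precursor protein gene APP, the spliceosome protein gene SNRPD2 and the kinase gene PAK4. Of 46 cytosolic ribosomal protein genes kept, 39 were steady (84.8%, against 13.5% of all kept genes) and none was variable, with a list median of 0.067. Their level was high, with a median of 12.22, and the ratio of their SDs to the median SD of the genes nearest in level had a median of 0.81. By that ratio, the 5 kept HLA class I and antigen processing genes (0.744) and the mitochondrial ribosomal proteins (0.754) were lower. HLA-B, HLA-C, HLA-E, HLA-F and HLA-G could not be placed and are not among these 5. Their SDs were 0.23, 0.23, 0.19, 0.29 and 0.083. KB10460 colony 3 was the lowest in 18 of the 46, and over all kept genes in 24.9%. KB10973 colony 1 was the highest in 15, and over all kept genes in 9.86%.

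Other basic functions had low SDs as well, as the plot of lists shows. The median SD was 0.125 in 52 subunits of the respiratory chain and ATP synthase, 0.139 in 28 translation factors, 0.145 in 29 proteasome subunits and 0.153 in 37 mitochondrial ribosomal proteins. The ratio to the median SD of genes nearest in level was 0.88, 0.90, 0.92 and 0.75 in the same order. Apart from the mitochondrial ribosomal proteins, these lists thus varied nearly as much as genes of like level. The single variable gene in these 4 lists was COX7A2L. Genes of mitosis (0.187, 26 genes) and DNA replication (0.190, 22 genes) lay close to the overall median and held no variable gene. Of 12 common reference genes 5 were steady, and TFRC, the transferrin receptor, was variable, at 7.31 in KB10973 colony 2 and at 8.32 to 9.42 in the other 5 (SD without that colony 0.426). The lists above the overall median, apart from those described, included trophoblast and amnion genes (0.395), where KRT8, KRT18 and KRT19, keratins of simple epithelia, were all highest in KB10460 colony 2 and lowest in KB10460 colony 1. KRT18 was at 12.14 in the former and 11.03 in the latter. Of the 5 kept genes of this list, KRT8, KRT18 and TEAD4 lie on orangutan chromosome 10, which is described below. The trophoblast genes CDX2, CGA, GCM1 and ELF5 stayed far under the level limit, with means of 3.86, 3.10, 3.16 and 3.06.

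**Figure D3:**
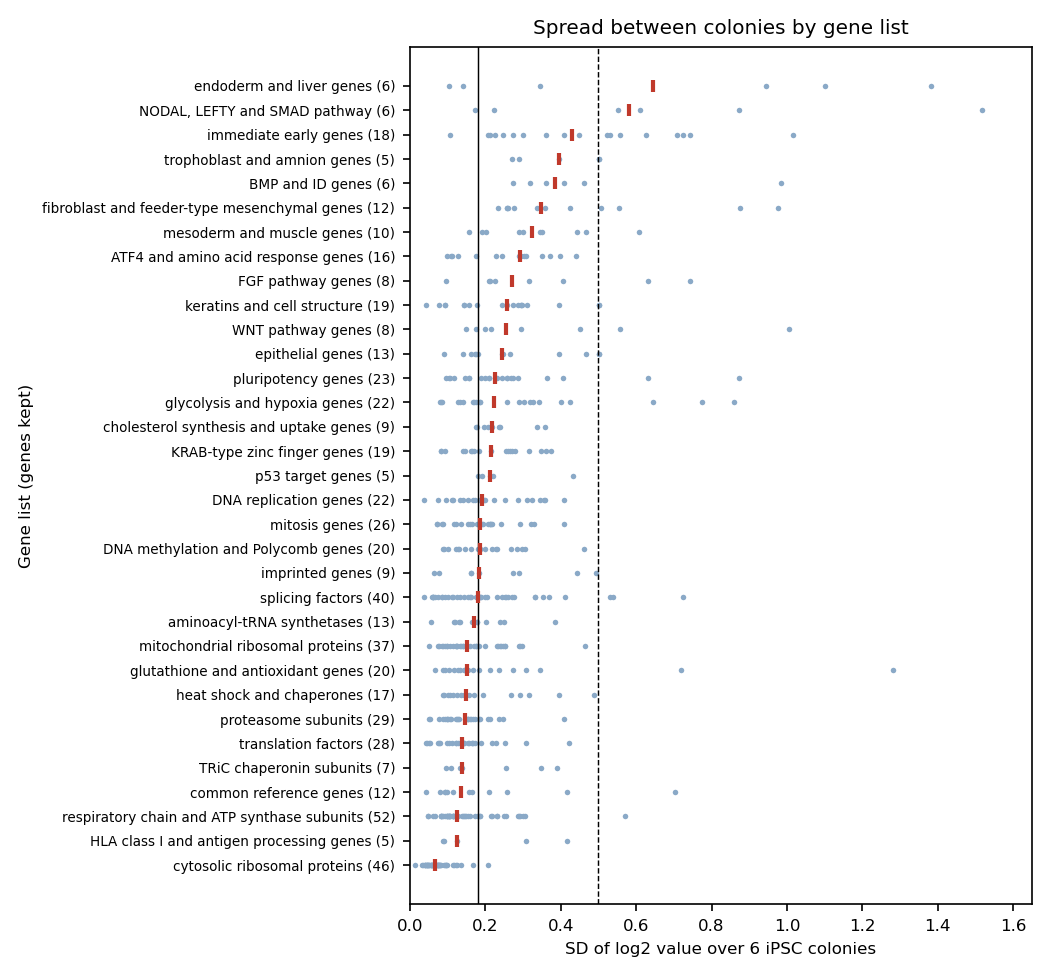
SD of the log2 value over the 6 iPSC colonies (horizontal axis) for the kept genes of each list, with 1 point per gene, the number of kept genes in parentheses and a red bar at the list median. The solid line marks the median of all genes, 0.18, and the dashed line an SD of 0.5. List medians run from 0.067 for cytosolic ribosomal proteins to 0.644 for endoderm and liver genes.

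Some lists had under 5 kept genes and are given by their members. TBXT, CER1 and GATA6 were the 3 kept of 12 primitive streak and mesendoderm genes. Of 19 germline genes on the array KIT (SD 0.08) and DND1 (SD 0.38) were kept. No HOX gene of 23 was kept. The replication-dependent histone genes H2AC6 (SD 0.90) and H2BC12 (SD 0.72) reached the level limit but could not be placed on a chromosome, and the other histone genes of the list were not kept. Of 9 imprinted genes kept 0 were variable, a number that a share of 3.76% also gives. MEST, an imprinted hydrolase-fold gene, was at 11.03 in KB10460 colony 2 and at 9.86 to 10.04 in the other 5, and its SD of 0.44 was 0.071 without that colony. TFPI2 had an SD of 0.49, CDKN1C 0.29, SGCE 0.27, GRB10 0.18, INPP5F and CD81 0.16 each, and GNAS 0.078. In the region that matches human 15q11, UBE3A (SD 0.063), CYFIP1 (0.087) and NIPA2 (0.16) were kept. NDN, an imprinted gene of the same region, stayed under the level limit with a mean of 4.67 but had an SD of 1.13. It was at 5.86 and 5.69 in KB10460 colonies 2 and 3 and 5.55 in KB10973 colony 3, and between 3.59 and 3.69 in the other 3 colonies, a gap that was noticed after its values had been seen.

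The colonies covaried as 2 pairs. For each gene the mean of the 6 colonies was subtracted, and the deviations were correlated between colonies across the 2769 genes. Deviations of 6 unrelated colonies of equal variance from a shared mean would correlate at -0.20, and genes are not independent replicates, so the coefficients are descriptions to be read against -0.20. They were 0.471 for KB10973 colonies 1 and 2 and 0.462 for KB10460 colonies 2 and 3, and lay above -0.20 also between KB10973 colony 3 and its sisters (0.013 and -0.023) and for KB10460 colony 1 with KB10973 colony 2 (-0.113). The other 10 pairs were below -0.20. The most negative was that of KB10460 colony 3 and KB10973 colony 2, at -0.666. In that pair 97 genes (3.5%) differed by more than 1, against 7 genes (0.253%) between KB10973 colonies 1 and 2 and 9 (0.325%) between KB10460 colonies 2 and 3. KB10460 colony 1 was no closer to its sister colonies (70 and 60 genes) than to those of the other animal (41 to 51 genes).

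Principal components gave the same arrangement. PC1 held 44.9% of the variance and set KB10460 colonies 2 and 3 (scores 10.9 and 11.2) against KB10973 colonies 2 and 1 (-9.69 and -7.05). CER1, GATA6, SPP1 and MAT2A had the largest positive weights on it and JAM3, ANXA1, CXCL14 and CAV1 the most negative. PC2 held 23.5% and set KB10460 colony 1 (13.02) apart from all others (-4.02 to -0.210), with GSR, SPP1 and FOS on its side and FLRT3, CYP1B1, BMP2 and CER1 on the other. PC3, with 14.2%, was led by KB10973 colony 3 (9.65), and PC4, with 10.7%, by KB10460 colonies 3 and 2 at opposite ends (6.23 and -5.87).

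**Figure D4:**
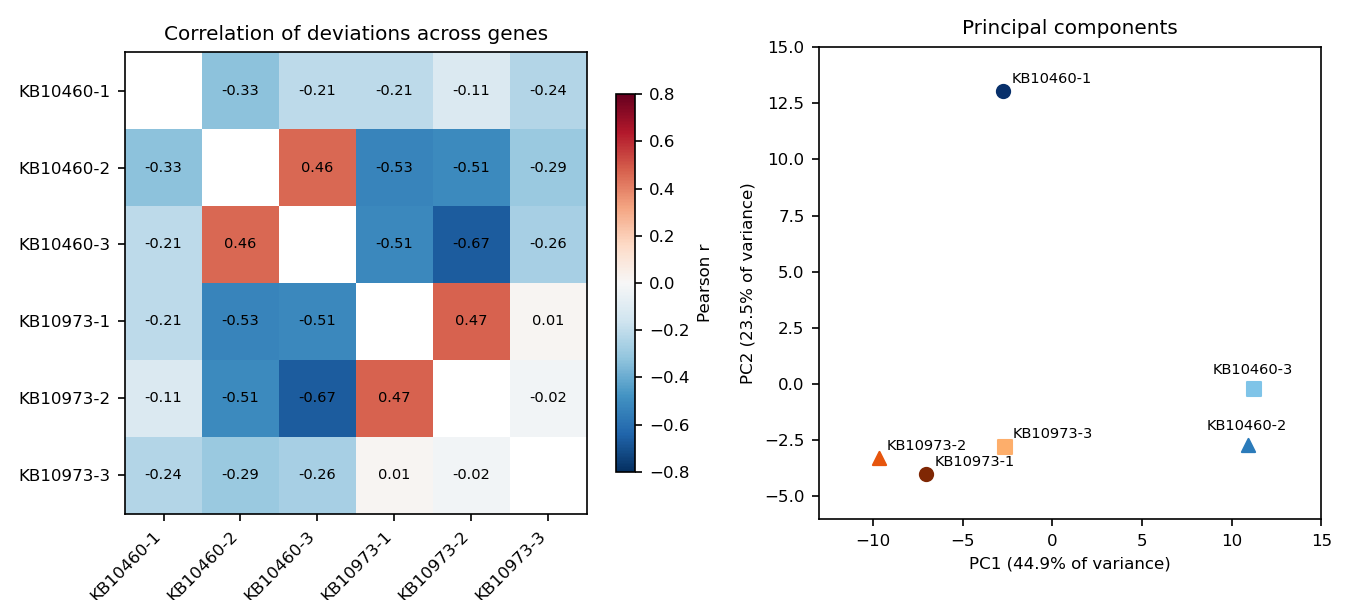
Left, Pearson correlation of the deviations of each pair of colonies across 2769 genes, from -0.67 (blue) to 0.47 (red). Right, scores of the 6 colonies on the first and second principal components (44.9% and 23.5% of the variance, arbitrary units), where KB10460 colonies 2 and 3 lie at the right, KB10973 colonies 1 and 2 at the left and KB10460 colony 1 at the top.

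The widest gaps of the variable genes, the only genes for which they were counted, fell along the same lines. In 25 of the 104 (24%) the widest gap separated KB10460 colonies 2 and 3 from the other 4, with the pair higher in 15 genes and lower in 10. In 15 it separated KB10460 colony 1, which was the low one in 12, in 13 KB10973 colonies 1 and 2, and in 10 the animals. KB10460 colony 2 stood alone in 9 genes and was the higher in 8 of them. All 7 genes in which KB10973 colonies 1 and 2 were the higher lie on chromosome 12, and 5 of the 8 in which KB10460 colony 2 was the higher lie on chromosome 10. Chromosome 12 holds 126 of the 2769 kept genes and 16 of the 104 variable genes, and chromosome 10 holds 177 and 6. Over all kept genes, 35 lay more than 1 away from the median of the other 5 in KB10460 colony 1, 32 each in KB10460 colonies 2 and 3, and 14, 24 and 15 in KB10973 colonies 1, 2 and 3. Single genes that set 1 colony apart were GNA14, a G protein subunit, at 7.86 in KB10973 colony 3 and 5.52 to 6.42 elsewhere (SD 0.361 without that colony), and CA3, a carbonic anhydrase, lowest in the same colony at 7.17 against 7.69 to 9.15. GNA14, with a mean of 6.18, reached the level limit only through KB10973 colony 3.

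Whole chromosomes differed between colonies in 4 cases. Each gene's value in a colony was set against the median of the other 5 and corrected for the colony's median over all kept genes. Chromosomes are numbered as in the orangutan, where 10 matches human 12, 12 matches a part of human 2, and 17 matches human 18. The median of the 177 genes of chromosome 10 was 0.402 in KB10460 colony 2 (1.32-fold), and 173 of them were above 0. The 126 genes of chromosome 12 had a median of 0.423 in KB10973 colony 1 and 0.428 in KB10973 colony 2 (1.34-fold in each), with 118 and 114 genes above 0. The 48 genes of chromosome 17 had a median of 0.424 in KB10460 colony 3 (1.34-fold), with 44 above 0. The other 134 pairs of a chromosome and a colony lay between -0.176 and 0.153, and the 20 other chromosomes between -0.084 and 0.069.

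The differences ran along the whole of each chromosome and were small for each gene. When the genes of a chromosome were split by their order into 4 parts, the median of chromosome 10 in KB10460 colony 2 was between 0.338 and 0.424 in every part, and that of chromosome 12 between 0.357 and 0.479 in both KB10973 colonies. KB10460 colony 2 was the highest colony for 133 of the chromosome 10 genes (75.1%), against 11.5% of genes on other chromosomes. KB10460 colony 3 was the highest for 31 of the 48 genes of chromosome 17 (64.6%), against 12.4% of genes on other chromosomes. On chromosome 10 KB10460 colony 3 had a median of 0.153, the highest of the 134 other pairs, with 133 of 177 genes above 0. The pairs were picked after all medians had been seen. DNA copy number of these cultures was not analysed here. The paper compared SNP array signals of iPSCs with those of fibroblasts from the same donor and reported no large copy number changes. Its copy number profiles are given for KB10973 colony 1, which had the higher median on chromosome 12, and for KB10460 colony 1. The expression values were not tested against those profiles.

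**Figure D5:**
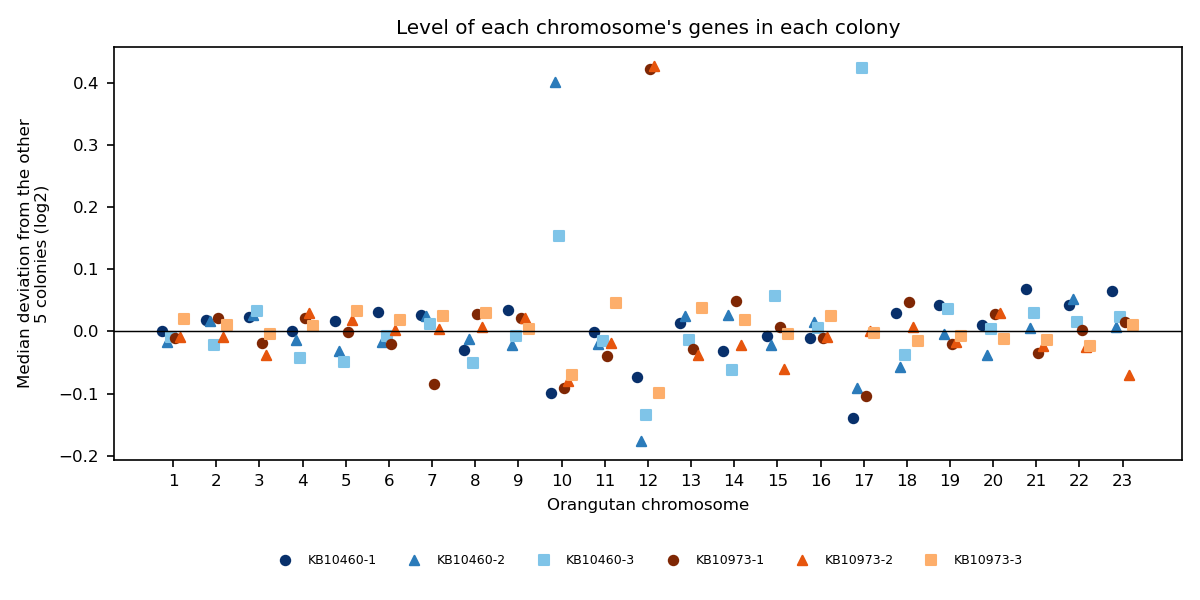
Median deviation (log2) of the kept genes of each orangutan autosome in each iPSC colony from the other 5 colonies, after correction for the colony's median. KB10460 colony 2 stands at 0.402 on chromosome 10, KB10973 colonies 1 and 2 at 0.423 and 0.428 on chromosome 12, and KB10460 colony 3 at 0.424 on chromosome 17, and all other points lie between -0.176 and 0.153.

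These chromosomes also carried variable genes. On chromosome 12, 16 of 126 genes were variable (12.7%, against 3.76% of all), among them FHL2, a cofactor of muscle and stroma, at 8.58 and 8.42 in KB10973 colonies 1 and 2 and at 6.47 to 7.78 in the others, and COX7A2L, at 7.67 and 7.90 in these colonies and 6.52 to 7.16 in the others. VSNL1, a calcium sensor, was at 7.01 and 7.59 in them and 5.28 to 6.58 elsewhere. On chromosome 10 there were 6 of 177 (3.39%), GDF3, NELL2, DUSP6, ACVR1B, CSRP2 and KRT8, and all 6 were highest in KB10460 colony 2. On chromosome 17 the variable genes were GATA6 and CDH2, a cadherin of mesenchymal and neural cells, both highest in KB10460 colony 3. MAT2A and CYP1B1, a cytochrome P450, also lie on chromosome 12 and were not highest in KB10973 colonies 1 and 2. Without chromosomes 10, 12 and 17, 80 of 2418 genes were variable (3.31%), and the correlation of deviations was 0.461 for KB10460 colonies 2 and 3 and 0.395 for KB10973 colonies 1 and 2.

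For variable genes the fibroblasts lay below all colonies less often than for all kept genes. Both fibroblast cultures were below all colonies in 39 of 104 (37.5%, against 52.5% of all kept genes), above all in 21 (20.2% against 17.8%) and within the range in 15 (14.4% against 9.21%). For the remaining 29 (27.9% against 20.4%) the cultures fell on different sides of a limit. Variable genes were chosen for a wide spread, which lowers their lowest colony and widens the range the fibroblasts are set against. The level limit, set on the colonies alone, also favours genes that are lower in fibroblasts. The differences between these shares therefore cannot be read as particular to variable genes. A further 93 kept genes could not be placed on a chromosome by their symbol and were left out of the counts, 14 of them with an SD over 0.5, and not all of them are autosomal. Of these, and picked after their values had been seen, CALCA, the calcitonin gene, had an SD of 1.66, with 6.22, 8.29 and 7.44 in KB10460 colonies 1, 2 and 3 and 4.29, 4.15 and 5.95 in KB10973 colonies 1, 2 and 3. CALCA, with a mean of 6.06, reached the level limit only through the KB10460 colonies. CYP11A1, the first enzyme of steroid synthesis, had an SD of 1.17 and was highest in KB10973 colony 3 at 8.70 and lowest in KB10460 colony 3 at 5.45. CYP26A1, which degrades retinoic acid, was at 7.41 in KB10460 colony 1 and at 8.81 to 9.44 in the other 5. ACTC1, cardiac actin, ranged from 8.05 in KB10460 colony 2 to 9.93 in KB10973 colony 3.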

How the data were processed

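The authors hybridized RNA of 8 cultures to one-colour Affymetrix Human Genome arrays, normalized them with RMA in WebArray (version not given in the sources used here) and deposited log2 values of 22277 probe sets. RMA makes array distributions equal, so a change of most transcripts at once would be removed, and mismatches between human probes and orangutan transcripts lower signals. No column lacked a sample (0 left over). Precision is limited by how few arrays there are.

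From the deposited log2 values of the 6 iPSC arrays, SD, range, correlations and principal components were computed in Python 3.11.15 with numpy 2.4.6 and pandas 2.3.3, and tested on simulated data. No significance test was run. By the platform annotation, 19070 probe sets had 1 symbol, 1043 had several and 2164 had none. Genes with a mean over 6 and 1 symbol were taken at the probe set with the highest mean and placed by symbol on assembly NHGRI_mPonAbe1-v2.0, which left out 93 unplaced genes and 121 genes of the sex chromosomes and mitochondrion. Named genes were the 25 with the highest and 12 with the lowest SD, up to 3 variable genes of each list, the 3 furthest genes each way of each colony, the reprogramming factors and NANOG, kept imprinted and 15q11 genes, and the 5 steadiest of the steadiest list. Further genes stand as members of a list or split they are counted in, or are marked as picked later. The 43 gene lists and the rules were chosen with earlier results of these data known. Alternatives changed the level limit, the normalization, the measure of spread, the probe sets per gene and the colonies. The SNP arrays of the study were not used here.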

Additional observations from a re-analysis of the deposited data

Results flagged for a closer look

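In groups of 6, a sample was looked at again when its gap to the nearest other sample was a large share of the whole range (Dixon's ratio). Chance gives this in about 1 in 20 groups. Of the 75 named genes 2 met it (2.67%), and of all 2769 kept genes 184 did (6.64%). MEST had a ratio of 0.847, with KB10460 colony 2 at 11.03 above the other 5 at 9.86 to 10.04. RPL19 had a ratio of 0.766, with KB10460 colony 1 at 11.50 above the others at 11.46 to 11.47, on an SD of 0.014.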

How the results depend on the processing

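Of 104 variable genes, 103 were also variable after quantile normalization and 103 after median centring of the arrays, and 47 stayed variable whichever colony was left out. The number of variable genes was 62 with a level limit of 7, 207 with no limit and 69 with the SD taken within animals, of which 63 were shared. Leaving out 1 colony gave 95 to 117 variable genes, 395 to 525 steady genes and a median SD of 0.170 to 0.184. The number of steady genes was 2592 with no limit and 762 with the median absolute deviation. The median SD was 0.143 with no limit, 0.162 within animals and 0.150 with the median absolute deviation. PC1 held 41.2% to 58.2% and PC2 18.6% to 30.5% when 1 colony was left out, and PC1 was highest without KB10460 colony 1. The correlation of KB10973 colonies 1 and 2 was 0.318 to 0.487, lowest without KB10460 colony 3. Among settings added after the data had been seen, the median of chromosome 17 in KB10460 colony 3 was 0.387 with a level limit of 5 and 0.451 with 7, and 0.415 to 0.443 without 1 other colony. Without 1 other colony chromosome 10 in KB10460 colony 2 was at 0.385 to 0.436, and chromosome 12 at 0.385 to 0.462 in KB10973 colony 1 and 0.399 to 0.479 in colony 2. With the unplaced genes added, less 1 that is Y-linked, 117 of 2861 were variable, and not all of those added are autosomal. For named genes and lists, 52 of 1089 and 29 of 487 recomputed SDs moved by more than their jackknife error. No paired analysis was possible because no result comes from a test and colony numbers of the animals share only a number.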
